A study of Oryza sativa Japonica Group with 20 samples.

Results

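The sustained-fall genes were the 150 rice genes whose array intensity fell furthest and stayed low in both root and leaf of dehydrating seedlings, out of 27609 genes on the array. They were chosen from the measured values themselves. Intensities under 200 were raised to 200, log2 values were averaged over the duplicate arrays of each group, and each time was set against 0 h of the same tissue. Genes with AK identifiers (full-length cDNA clones) or Os identifiers (loci of the rice genome annotation) and a log2 change under -1 at 2, 6 and 12 h in both tissues were kept. The 150 with the lowest maximum of these 6 changes were then taken. Of 26789 AK and Os genes, 1868 met the thresholds in root (6.97%), 1725 met them in leaf (6.44%) and 314 met them in both, or 16.8% of those found in root and 18.2% of those found in leaf. The remaining 164 of the 314 were left out, and 11 of 820 genes with other identifiers met the same thresholds but stood outside the choice.

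The samples were roots and leaves of non-transgenic seedlings of the japonica cultivar Nakdong, taken before drying (0 h) and after 0.5, 2, 6 or 12 h of it, with 2 arrays in each of the 10 groups. Every group, 0 h included, came from 14-day-old seedlings pulled from soil and held in fresh water for 1 day. Drying was in air at 32 °C and 50% humidity under continuous light, with the roots wrapped in tissue and foil, so the treatment was acute water loss from intact seedlings rather than soil drought. The duplicates were labelled biological replicates, the labels did not say whether they came from separate plants or dryings, and p-values therefore measure only the spread between these arrays. Each value was the RMA-summarised Cy3 intensity of 1 gene on 1 array, on a linear scale, from probes tiled at the 3′ end.

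Plants that lose water stop growing, close their stomata and lower many transcripts for growth, cell division, protein synthesis and, in leaves, photosynthesis. Much of this programme runs through the hormone abscisic acid, while protective transcripts such as those of dehydrins rise. A transcript level falls when synthesis slows, when decay quickens or when both happen, and an array reads only the resulting level. In whole organs, fewer cells of a type and less RNA per cell cannot be told apart. The deposited tables did not pair identifiers with gene names, no identifier matched the reference table used here, and neither of the dehydration markers nor any of the photosynthesis genes named by the study was among the 150. The genes are therefore described by identifier, level and time course, and no roles are given.

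The tissue labels were checked with 7 leaf genes, rbcS (the small subunit of Rubisco) and CB1 to CB6 (chlorophyll a/b binding proteins). All 7 were lower on both root 0 h arrays, at 84.3 to 1415, than on both leaf 0 h arrays, at 16165 to 58566. In root their summed intensity was 5940 and 5007 (0 h), 12074 and 21370 (0.5 h), 18282 and 28063 (2 h), 14208 and 27053 (6 h), and 16197 and 42382 (12 h) on replicates 1 and 2. All 7 stood above both root 0 h arrays at 2, 6 and 12 h, and 6 did at 0.5 h. In leaf the sum was 304888 and 285810 (0 h), 315832 and 315568 (0.5 h), 214342 and 250849 (2 h), 153970 and 173290 (6 h), and 115732 and 114316 (12 h), and all 7 stood below both leaf 0 h arrays at 6 and 12 h. The part of these movements in the values of the 150 genes was not tested. A control feature of random sequence served as a measure of background. It read 340 on root 0.5 h replicate 2 and 362 on leaf 0.5 h replicate 1, against 115 to 228 on the other 18 arrays. Counts of genes called at 0.5 h, which rest on those arrays, are given with and without them below. Other counts at 0.5 h include them unless a replicate is named.

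At 0 h the 150 genes were of middling intensity. Their median over genes was 2626 in root and 2475 in leaf, the 49.1 and 48.9 percentile of AK and Os genes. None of them lay below the random-sequence feature on any 0 h array, against 6.83% to 9.64% of all genes. The choice could take only genes with 0 h means above 400 in both tissues, so nothing is read from this difference. By 12 h the medians were 378 in root and 437 in leaf, the 17.8 and 20.5 percentile. All 150 were read by 10 probes, as were 27431 of all genes. AK identifiers made up 137 of the 150 (91.3%), against 73.5% of the 21354 genes whose 0 h means were above 400 in both tissues and could therefore meet the thresholds. The 13 Os genes carried chromosome 1 in 3 identifiers, chromosomes 5, 10 and 11 in 2 each, and chromosomes 2, 4, 7 and 9 in 1 each.

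The time course on single arrays was as follows, with values that also made the choice from 2 h on. In root the median intensity of the 150 genes on replicates 1 and 2 was 2849 and 2277 (0 h), 1473 and 696 (0.5 h), 786 and 638 (2 h), 610 and 430.0 (6 h), and 387 and 360.5 (12 h). In leaf it was 2382 and 2599 (0 h), 775 and 1355 (0.5 h), 614 and 667 (2 h), 432 and 443 (6 h), and 337 and 510.3 (12 h). Both later arrays lay below both 0 h arrays at every time in both tissues. The median of all genes stayed between 1954 and 2743 on the 20 arrays, and its lowest value was on leaf 0.5 h replicate 1.

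**Figure D1:**
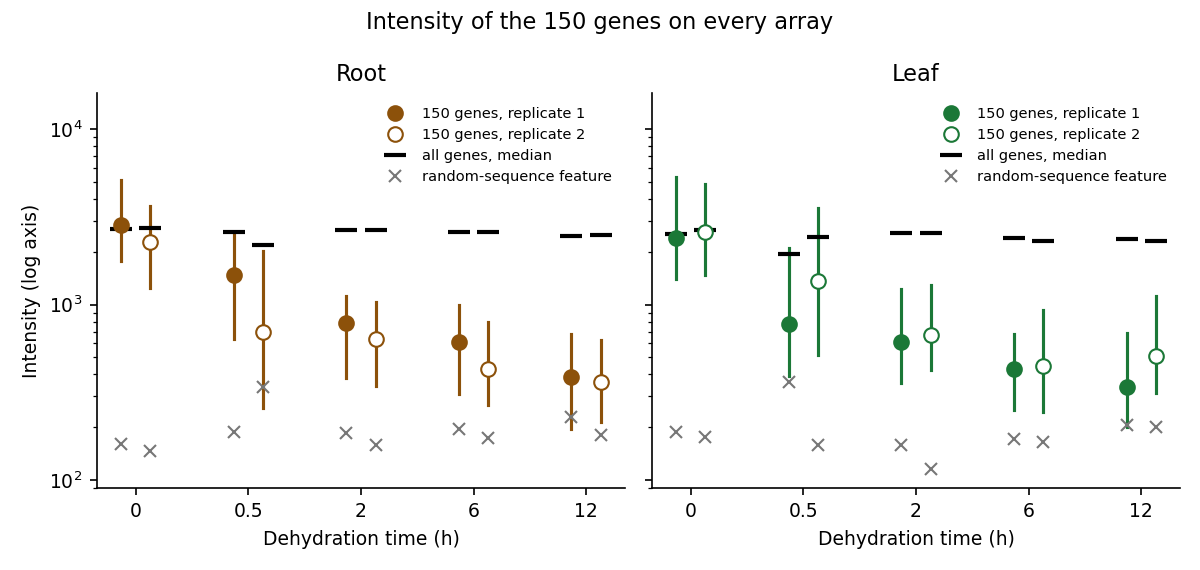
Intensity (log axis) of the 150 genes on every array by dehydration time (h, evenly spaced), root at left and leaf at right. Circles are medians over the 150 genes (filled, replicate 1; open, replicate 2), vertical lines run from the lower to the upper quartile, bars are the median of all genes and crosses the random-sequence feature, which was raised to 340 on root 0.5 h replicate 2 and to 362 on leaf 0.5 h replicate 1.

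The median log2 change in root, with the floor of 200, was -1.29 (0.5 h), -1.81 (2 h), -2.08 (6 h) and -2.46 (12 h), the last a 5.51-fold lower level. In leaf it was -1.33 (0.5 h), -1.80 (2 h), -2.31 (6 h) and -2.32 (12 h), a 5.01-fold lower level. The floor bounds these changes, since 39 and 35 of the 150 genes read under 200 on the root 12 h arrays and 37 and 27 did on the leaf 12 h arrays. Changes under -3 at 12 h were reached by 38 genes in root and 31 in leaf. The choice fixed the values at 2, 6 and 12 h below -1, so they are given as a description.

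With the floor, the lowest change came mostly at 12 h in root and mostly at 6 or 12 h in leaf. In root the lowest of the 4 changes was at 12 h for 99 genes, 2 h for 21, 6 h for 16 and 0.5 h for 14. In leaf it was at 6 h for 81 genes and at 12 h for 61, with 3 at 2 h and 5 at 0.5 h. A fall that deepened at every time was found for 70 genes in root and 42 in leaf. Genes at the floor on both arrays at several times tie there, and each was counted under a single time. In root AK110836 had the same change, -3.69, at 2, 6 and 12 h. Such ties also did not count as a fall that deepened. The counts therefore do not order the times of genes that had reached the floor. The median share of the 12 h change present earlier was 49.9% (0.5 h), 75.5% (2 h) and 86.6% (6 h) in root, and 53.8%, 78.4% and 101% at the same times in leaf. In leaf, 19 genes at 12 h had come back by more than 0.5 on the log2 scale from their lowest change, and in root 6 had. Leaf 12 h replicate 2, with its median of 510.3, stood above both leaf 6 h arrays, while leaf 12 h replicate 1 stood below them, so the leaf medians at 6 and 12 h differed by less than the spread of the 12 h duplicates.

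**Figure D2:**
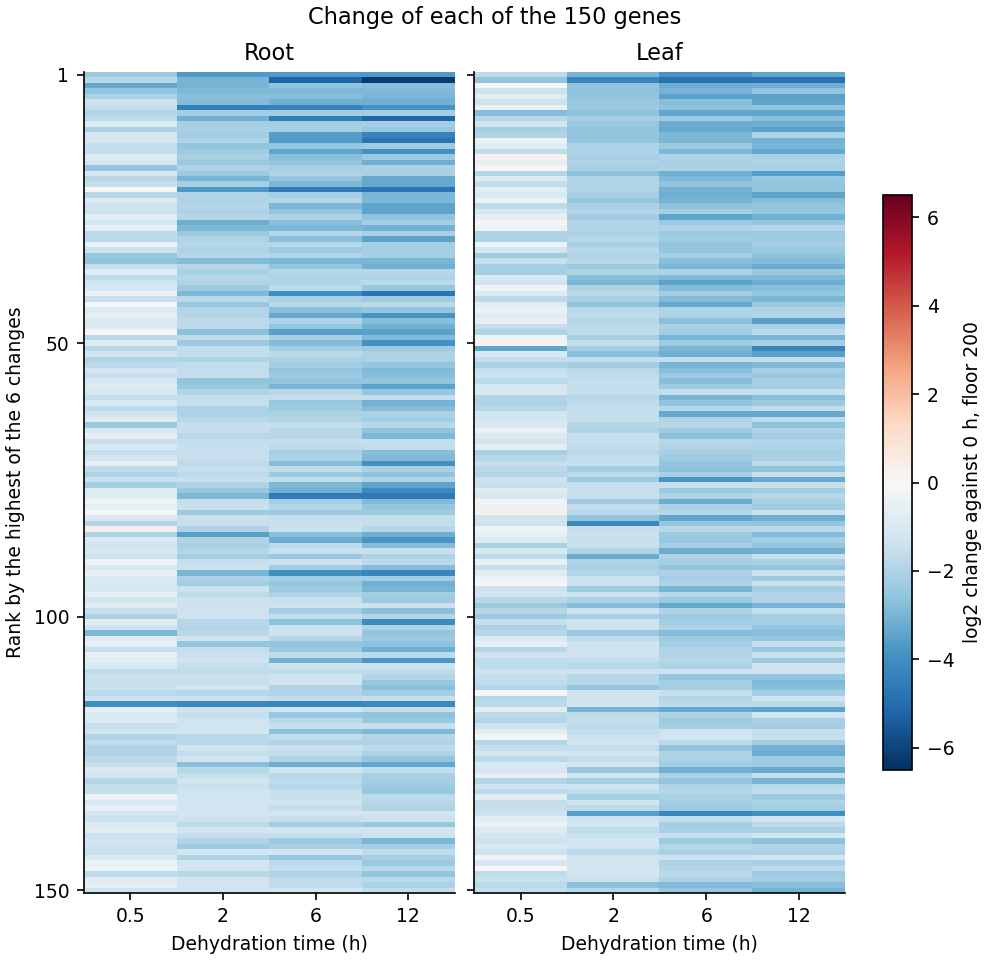
Log2 change of each of the 150 genes against 0 h of the same tissue (floor 200), root at left and leaf at right, with time in h across and genes down, ranked by the highest of the 6 changes used in the choice. Blue is lower and red higher; the median deepened to -2.46 in root and -2.32 in leaf at 12 h, and the 0.5 h columns, which the choice did not use, hold 3 genes above 0 in root and 7 in leaf.

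The genes at the top of the ranking showed how deep the fall went. AK110836 ranked first. In root it read 2384 and 2793 (0 h), 704 and 332 (0.5 h), 51.8 and 95.3 (2 h), 56.6 and 89.7 (6 h), and 52.7 and 66.4 (12 h). From 2 h both root arrays lay below the random-sequence feature, which made the fall at least 12.7-fold at 12 h. In leaf it read 2757 and 3543 (0 h), 378 and 2329 (0.5 h), 222 and 651 (2 h), 150 and 238 (6 h), and 70.2 and 464 (12 h). Its leaf duplicates lay far apart at 0.5 and 12 h, with replicate 1 the lower each time.

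AK069503 ranked second and fell most at 12 h in root. Its root arrays read 25209.8 and 19669 (0 h), 5914 and 7077 (0.5 h), 3668 and 2057 (2 h), 613 and 556 (6 h), and 299.3 and 299.8 (12 h), a 74.3-fold lower level. Its leaf arrays read 5291 and 11144 (0 h), 832 and 1971 (0.5 h), 256 and 649 (2 h), 315 and 228 (6 h), and 361 and 113 (12 h), the last of them below the random-sequence feature. At 6 h, where both leaf arrays were above it, the leaf level was 28.7-fold lower. All 8 later arrays of each tissue lay below both 0 h arrays of that tissue, and in root the arrays of each time lay below those of the time before it.

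At the other end, AK119293 was the last gene chosen, with a highest change of -1.23 at 6 h in root, and AK111824 was the first left out, also at -1.23. AK119293 read 4824 and 4722 (0 h) in root, 2452 and 1475 (0.5 h), 1843 and 1884 (2 h), 2167 and 1916 (6 h), and 1484 and 1616 (12 h). In leaf the same gene fell further, reading 2132 and 1567 (0 h), 780.2 and 489 (0.5 h), 520 and 501 (2 h), 436 and 257 (6 h), and 234 and 175 (12 h).

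The same measure was then read on arrays that took no part in the choice, by choosing genes on the arrays of one replicate number and reading their changes on the other. Of the genes that met the thresholds on replicate 1 (410), the 150 with the lowest maximum were taken, and 58 of them met all 6 thresholds on replicate 2 (38.7%), against 1.1% of all AK and Os genes. Chosen on replicate 2 (296 met the thresholds there), 72 of 150 met all 6 on replicate 1 (48.0%), against 1.53%. Among genes bright enough at 0 h on the arrays read to meet the thresholds, the shares were 1.40% and 1.93%. A change below 0 at all 6 points was found for 124 of 150 on replicate 2, against 17.9% of all genes, and for 134 of 150 on replicate 1, against 17.1%.

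The root thresholds were met by more of these genes than the leaf thresholds. All 3 root thresholds were met by 115 of 150 on replicate 2 (6.53% of all genes) and by 110 of 150 on replicate 1 (8.15%). All 3 leaf thresholds were met by 71 on replicate 2 (8.13%) and by 89 on replicate 1 (5.57%). Point by point, the root changes read on replicate 2 were under -1 for 121 genes (2 h, 7.92% of all genes), 128 (6 h, 12.1%) and 126 (12 h, 15.5%), and those read on replicate 1 for 117 (2 h, 9.25%), 125 (6 h, 12.7%) and 138 (12 h, 17.2%). The leaf changes on replicate 2 were under -1 for 78 genes (2 h, 12.5%), 116 (6 h, 18.9%) and 110 (12 h, 16.8%), and on replicate 1 for 93 (2 h, 6.99%), 130 (6 h, 11.6%) and 134 (12 h, 14.5%). Leaf at 2 h was the point missed most often in either direction of the reading. The medians on the replicate not used for the choice ran from -1.48 at 2 h to -2.29 at 12 h in root, and from -1.06 at 2 h to -2.23 at 12 h in leaf. Of the 150 genes described here, 87 were also chosen on replicate 1 alone and 82 on replicate 2 alone.

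At 0.5 h, on arrays outside the choice, the same reading gave smaller changes. Chosen on replicate 2 and read on root replicate 1, the median change was -0.71, with 47 of 150 under -1 (7.06% of all genes). Chosen on replicate 1 and read on leaf replicate 2, the median was -0.62, with 51 of 150 under -1 (8.23%). On the arrays with a raised random-sequence feature the medians were -1.33 in root replicate 2, with 87 under -1 (24.7% of all genes), and -1.29 in leaf replicate 1, with 93 under -1 (20.7%).

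**Figure D3:**
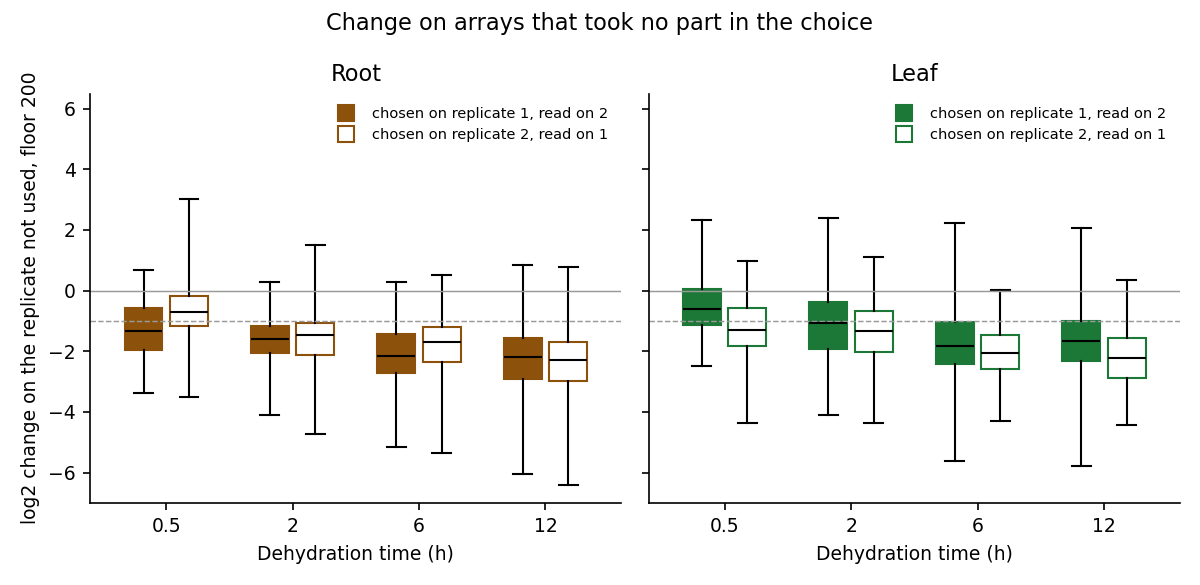
Log2 change (floor 200) on the replicate that took no part in the choice, by dehydration time (h), root at left and leaf at right, for 150 genes chosen on replicate 1 and read on 2 (filled) and 150 chosen on replicate 2 and read on 1 (open). Boxes span the quartiles with the median as a line and whiskers reach the lowest and highest gene; the dashed line is the threshold of -1, and all medians from 2 h on lie between -1.06 and -2.29.

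The first 0.5 h of drying was tested with limma across all 27609 genes. The choice did not use the 0.5 h arrays, but it favoured genes that read high on the 0 h arrays they were set against. The counts and adjusted p-values of this contrast are therefore given as a description, and nothing is read from a difference between the 150 genes and all genes. In root 12 of the 150 genes were called lower and 0 higher at 0.5 h than at 0 h (adjusted p under 0.05 and a log2 change past 1), against 1.4% of all genes lower and 0.29% higher. In leaf 3 were called lower and 0 higher, against 0.261% and 0.145% of all genes. These 3 were also among the 12 in root. At an unadjusted p under 0.05 the counts were 86 in root (57.3%, against 25.8% of all genes) and 76 in leaf (50.7%, against 20.9%). The median of all genes shifted by -0.30 in root and -0.17 in leaf in the same contrasts.

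Without a test, both 0.5 h arrays lay below both 0 h arrays for 122 of the 150 genes in root (38.8% of all genes) and for 104 in leaf (30.1%). Both lay above for none in either tissue, against 19.5% of AK and Os genes in root and 14.0% in leaf. The choice favoured genes that read high at 0 h, so nothing is read from these differences either. Changes under -1 (floor 200) were found for 96 genes in root (13.2% of AK and Os genes) and 96 in leaf (11.7%), with 73 under -1 in both, 23 in root only, 23 in leaf only and 31 in neither. Arrays differed within the tissues. In root 72 genes were under -1 on replicate 1 (7.06% of AK and Os genes) and 106 on replicate 2 (24.7%). In leaf 115 were on replicate 1 (20.7%) and 76 on replicate 2 (8.23%). The larger count in each tissue came from the array with the raised random-sequence feature, on which 48 of the 150 in root (32%, against 20.0% of all genes) and 33 in leaf (22%, against 21.1%) read below that feature. Both arrays of a 0.5 h group lay below it for 4 genes in root and 3 in leaf.

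The calls depended on single arrays, and those over all genes moved with them. The root count was 1 when root 0.5 h replicate 2 was left out (0.0942% of all genes called in either direction) and 69 when replicate 1 of that group was (22.3%). It was 1 when root 0 h replicate 1 was left out (0.0978%) and 7 when root 0 h replicate 2 was (0.489%). In leaf the count was 41 without 0.5 h replicate 2 (14.7%) and 0 without any 1 of the other 3 arrays compared (0.0652% to 0.109%). With the arrays of the raised feature both left out it was 1 in root (0.214%) and 2 in leaf (0.279%). All of these calls were of lower levels at 0.5 h.

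AK121881 had the lowest adjusted p of the 150 genes at 0.5 h. In root it read 228 and 253 at 0.5 h against 4858 and 2886 at 0 h, a log2 change of -3.96 ± 0.46 (SE, n = 2 arrays each, limma adjusted p = 0.00243). The 253, on replicate 2, lay below the random-sequence feature of 340. Later root arrays read 166 and 211 (2 h), 175 and 158 (6 h), and 211 and 101 (12 h). AK121881 lay below the feature on both root arrays at 6 and 12 h, and on replicate 1 at 2 h. Its root call held under all 13 alternative settings in which it was tested, those without any 1 array included. In leaf it read 230.4 and 172 at 0.5 h against 532.45 and 921 at 0 h, a change of -1.82 ± 0.46 (limma adjusted p = 0.0882). The leaf values did not overlap between 0.5 and 0 h, but the change did not pass the threshold. Leaf 0.5 h replicate 1 lay below the random-sequence feature.

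AK068538 had the lowest root change at 0.5 h when no floor was used. Its root arrays read 400.1 and 56.0 at 0.5 h against 6190 and 1298 at 0 h, a change of -4.24 ± 0.86 (limma adjusted p = 0.0326). The 56.0, on replicate 2, lay below the random-sequence feature of 340. With the floor of 200 the change was -3.32, less deep than the -3.96 of AK121881. Without root 0.5 h replicate 2 the call of AK068538 was lost, with a change of -2.82. Its leaf arrays read 8958 and 4930 at 0.5 h against 8812 and 5318 at 0 h, a change of -0.04 whose sign turned under other normalizations. At 2 h the leaf arrays read 856 and 1472, so its leaf level was down there as well. In root it read 304 and 400 (2 h), 383 and 578 (6 h), and 373 and 451 (12 h).

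The 3 genes called in both tissues were AK063628, AK064886 and AK099886, the last named after its values were seen. AK063628 read 307 and 86.1 at 0.5 h against 1030 and 1020 at 0 h in root (change -2.66 ± 0.50, limma adjusted p = 0.0248). In leaf it read 139 and 269 at 0.5 h against 1017 and 1420 at 0 h (change -2.64 ± 0.50, limma adjusted p = 0.0434). The 0.5 h arrays lay below the 0 h arrays in both tissues, but 1 of them in each, the array with the raised random-sequence feature, read below that feature. With both raised arrays left out the root change was -1.74 (limma adjusted p = 0.107) and the leaf change -2.16 (limma adjusted p = 0.0473). The call was lost under 5 of 13 alternative settings in root and 7 of 13 in leaf.

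AK064886 read 466 and 353 at 0.5 h against 1728 and 2980 at 0 h in root (change -2.48 ± 0.41, limma adjusted p = 0.0146). In leaf it read 617 and 1253 at 0.5 h against 4556 and 4280 at 0 h (change -2.33 ± 0.41, limma adjusted p = 0.0304). Its level moved little after 0.5 h, with 564 and 717 (2 h) and 354 and 717 (12 h) in root, and 1303 and 986 (2 h) and 584 and 833 (12 h) in leaf. Each of its arrays was above the random-sequence feature. With both raised arrays left out neither change passed, at -2.28 in root (limma adjusted p = 0.0734) and -1.82 in leaf (limma adjusted p = 0.0856), and the call was lost under 4 of 14 alternative settings in root and 5 of 14 in leaf.

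AK099886 was dimmer. It read 655 and 346 (0.5 h) against 1783 and 2690 (0 h) in root (change -2.20 ± 0.40, limma adjusted p = 0.0218), and 138 and 122 (0.5 h) against 771 and 407 (0 h) in leaf (limma adjusted p = 0.0427). Both leaf 0.5 h arrays lay below the random-sequence feature, so its leaf fall was at least 2.35-fold. The call was lost under 6 of 13 alternative settings in root and 10 of 13 in leaf.

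**Figure D4:**
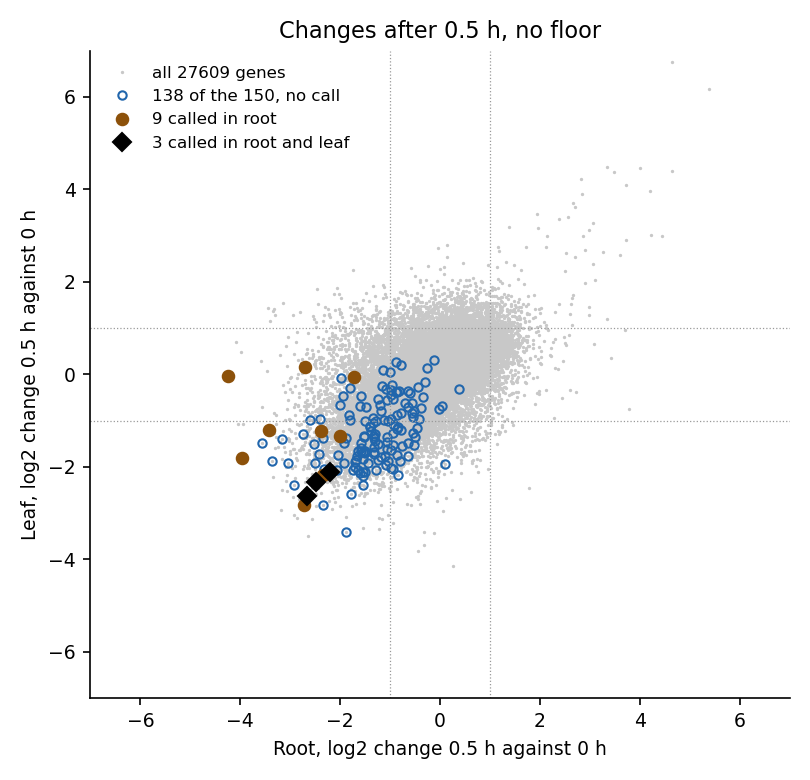
Log2 change at 0.5 h against 0 h in root (x axis) and leaf (y axis), without a floor, for all 27609 genes (grey) and the 150 genes (open circles, no call; filled circles, called in root; diamonds, called in root and leaf). Dotted lines mark changes of 1 and -1; the 12 called genes are all lower in root, and 3 of them are also called in leaf.

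Whether the early fall differed between the tissues was tested as the difference of the 0.5 h changes. None of the 150 genes passed in limma (lowest adjusted p = 0.471, against 0.00362% of all genes called), and 7 had an unadjusted p under 0.05 (4.67%, against 5.28% of all genes). The lowest adjusted p belonged to AK063627, which read 414 and 172 (0.5 h) against 1810 and 1651 (0 h) in root, and 6463 and 11951 (0.5 h) against 8887 and 7083 (0 h) in leaf. Its root values were well apart, and its leaf values overlapped. A difference between the tissues was therefore not shown for AK063627 or for AK068538, where only the root change was called.

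Root and leaf changes of the 150 genes lay within 1 of each other for 128 genes after 0.5 h, 124 after 2 h, 112 after 6 h and 102 after 12 h. By 12 h the change was lower in root by over 1 for 31 genes and lower in leaf by over 1 for 17. Pearson's r between root and leaf changes over the 150 genes was 0.31 (0.5 h), 0.13 (2 h), 0.12 (6 h) and 0.08 (12 h), against 0.60, 0.25, 0.36 and 0.41 over all 26789 AK and Os genes at the same times. Genes share arrays, and from 2 h on the choice confined the 150 to changes below -1 and so narrowed the range that r is drawn from.

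Root and leaf were then set against each other at 0.5 h, on arrays that took no part in the choice. In limma 26 of the 150 genes were called higher in root and 30 lower in root than in leaf, 37.3% together, against 9.34% of all genes higher, 7.33% lower and 16.7% together. Both root arrays lay above both leaf arrays for 39 genes (20.8% of all genes) and below both for 50 (17.8%). Leaving out the dimmest 25% of all genes kept 79 of the 150 in the test and called 34 of them, 17 higher and 17 lower (18% of all genes tested). The split between directions moved with single arrays, over the 150 genes as over all genes. It was 37 higher and 17 lower without root 0.5 h replicate 2 (3581 and 1628 of all genes), and 11 higher and 34 lower without leaf 0.5 h replicate 1 (1568 and 2868). It was 9 higher and 33 lower without root 0.5 h replicate 1 (1310 and 2467), and 25 higher and 16 lower without leaf 0.5 h replicate 2 (3986 and 1648). With the raised arrays both left out, 24 were higher and 26 lower (2325 and 2379 of all genes, 17% together).

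The same contrast at 0 h, on arrays that the choice used, called 13 genes higher and 15 lower in root than in leaf. At 18.7% of the 150 this was near the 18.4% of all genes called (11.2% higher and 7.19% lower). Of the 28 genes called at 0 h, 25 were called in the same direction at 0.5 h, 3 were not, and none turned round. A further 31 were called at 0.5 h alone. A call at only 1 of the times does not show that the tissue difference changed between them. The difference of the 0.5 h changes, tested above in limma, passed for none of the 150 (lowest adjusted p = 0.471). The overlap of calls was not counted over all genes.

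AK110900 was the gene highest in root over leaf at 0.5 h. It read 6820 and 3892 in root against 327 and 445 in leaf (log2 difference 3.76 ± 0.43, limma adjusted p = 4.4e-05), and at 0 h it read 7594 and 10032 in root against 873 and 1410 in leaf. Its root level then closed on the leaf level, with 548 and 439 in root against 147 and 299 in leaf at 12 h. AK072761 read 4491 and 3758 in root against 178 and 726 in leaf at 0.5 h (difference 3.51 ± 0.89, limma adjusted p = 0.0139). Its leaf 0 h arrays, at 273 and 2293, lay further apart than any change it showed at 0.5 h, and its leaf change turned to 0.40 without leaf 0 h replicate 2.

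AK068538 and AK063627 were the genes lowest in root against leaf at 0.5 h. Root 0.5 h replicate 2 read below the random-sequence feature for both. AK068538 differed by -5.47 ± 0.86 (limma adjusted p = 0.000553), with the arrays given above. AK063627 differed by -5.04 ± 0.46 (limma adjusted p = 6.99e-06), and by -2.20 ± 0.46 at 0 h (limma adjusted p = 0.00361), where it read 1810 and 1651 in root against 8887 and 7083 in leaf. Neither was called lower in leaf at 0.5 h, and both were down in leaf from 2 h, when AK063627 read 2923 and 1198.

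**Figure D5:**
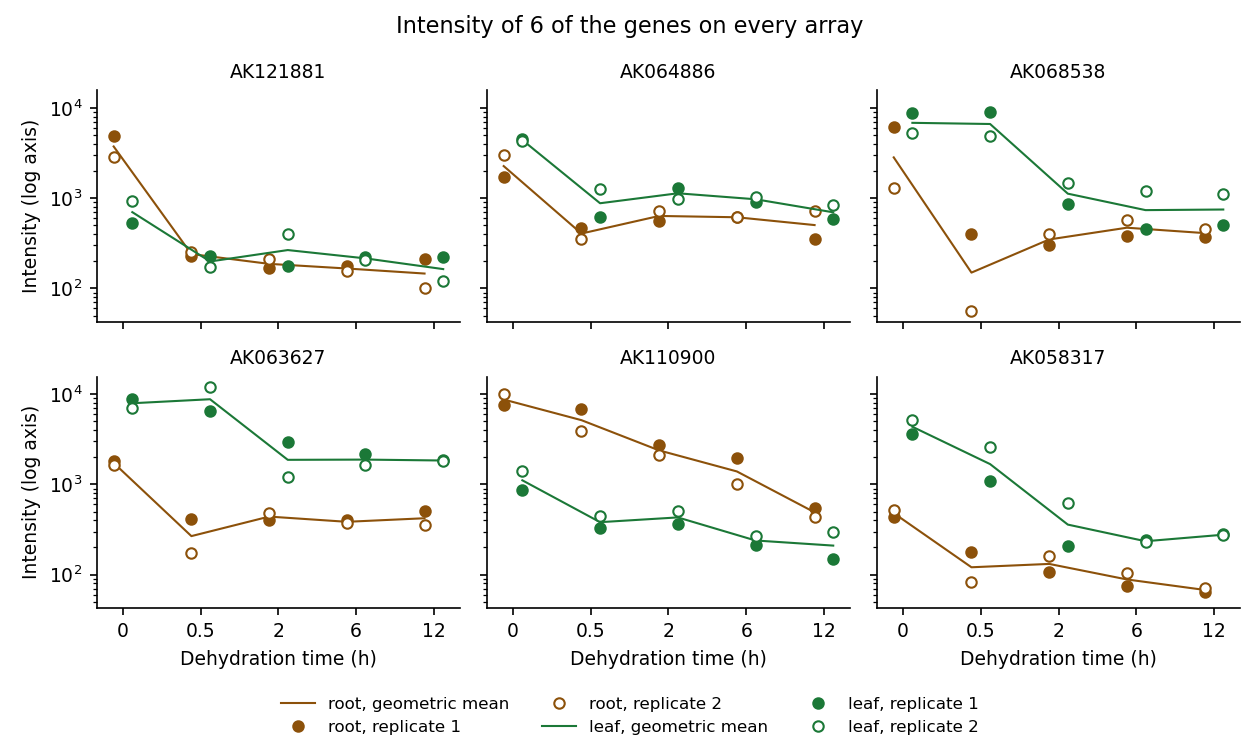
Intensity (log axis) of 6 of the genes on every array by dehydration time (h, evenly spaced), root in brown and leaf in green. Filled points are replicate 1, open points replicate 2 and lines join the geometric mean of the duplicates; AK121881 and AK064886 were low by 0.5 h in root, AK068538 and AK063627 read 4930 to 11951 in leaf at 0.5 h and 856 to 2923 there at 2 h, and AK110900 and AK058317 differed between root and leaf at 0 h.

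At 0 h the genes highest in root over leaf were AK067173 and AK072761, and the lowest were AK058317 and Os05g0586900. AK067173 read 17094 and 16967 in root against 1038 and 1695 in leaf (difference 3.68 ± 0.30, limma adjusted p = 2.63e-06). At 12 h it read 2272 and 2253 in root against 497 and 402 in leaf, so root remained the higher tissue after a larger fall. AK058317 read 439 and 524 in root against 3642 and 5205 in leaf (difference -3.18 ± 0.52, limma adjusted p = 0.00058), and at 12 h it read 64.1 and 71.3 in root, both below the random-sequence feature, against 281 and 272 in leaf. Os05g0586900 read 609 and 538 in root against 4078 and 4353 in leaf (difference -2.88 ± 0.36, limma adjusted p = 6.86e-05), and at 12 h 169 and 204 in root against 987 and 815 in leaf.

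For genes called higher in one tissue at 0 h, the median difference between the tissues was smaller at 12 h than at 0 h. The 13 genes called higher in root at 0 h had a median log2 difference of root over leaf of 2.42 (0 h), 2.34 (0.5 h), 1.87 (2 h), 1.42 (6 h) and 0.68 (12 h), and 12 of the 13 were still higher in root at 12 h. The 15 called higher in leaf had medians of -2.42 (0 h), -2.37 (0.5 h), -2.09 (2 h), -1.41 (6 h) and -1.54 (12 h), and 13 of the 15 were still higher in leaf at 12 h. These groups were formed from the 0 h arrays, which by itself favours a smaller difference on later arrays, so they are given as a description. The low intensities at 12 h also limit the size of any fall in the dimmer tissue. For the other 122 genes the median difference lay between -0.40 and 0.27 at the 5 times. Over the 150 genes, r between root and leaf log2 levels was 0.40 (0 h), 0.45 (0.5 h), 0.38 (2 h), 0.55 (6 h) and 0.62 (12 h).

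At the end of drying many of the 150 genes were at the level of background. At 12 h both arrays lay below the random-sequence feature for 28 genes in root and 15 in leaf, 10 of them in both tissues, while 82 genes stood above it on all 4 arrays. The share of the 150 below the feature at 12 h was 29.3% and 20.7% on the root arrays and 26% and 18% on the leaf arrays. No more than 12.5% of all genes lay below it on any of these arrays. The choice used these arrays and took genes that had fallen on them, so nothing is read from this difference.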

How the data were processed

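The authors deposited 1 intensity per gene and array, summarised by RMA and given on a linear scale; the RMA version and the genes used for normalization were not given in the sources used here. The 150 genes and all lists were chosen with earlier results of these data known. The choice raised intensities to a floor of 200 and used 16 arrays. Tests used limma 3.58.1 in R 4.3.3 (lmFit and eBayes) on log2 intensity without a floor, for 27609 genes, with 10 groups on 20 arrays and 1 shared spread, Benjamini-Hochberg adjustment over all genes, and a call at adjusted p under 0.05 with a log2 change past 1. Fold changes are ratios of geometric means. Where both arrays of a group lay below the random-sequence feature, the fold was computed against that feature and written as at least. Arrays carry no read depth, so 2 per group limits precision. On simulated data, 44 of 50 genes lowered by 3 and 12 of 50 lowered by 1.5 (log2) were recovered in the root 0.5 h contrast of 27609 genes. The simulated noise was independent, with 1 spread per gene on all arrays. It held no array that deviates as a whole, so recovery in the measured 0.5 h groups may differ. Alternatives were other normalizations, floors, filters, priors, a replicate block and leaving out arrays. Named genes were at most 2 in each direction of a comparison, the first 2 by rank, and the genes at the edge of the choice. None of 27609 identifiers matched the RefSeq gene table (assembly ASM3414082v1), so functional lists and promoter motifs were not used, and no sequences are shown. The deposited probe calls gave probes per gene.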

Additional observations from a re-analysis of the deposited data

How the results depend on the processing

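The count of genes called lower at 0.5 h in leaf was 3 (0.406% of all genes called in either direction). It became 7 with quantile normalization of all arrays (0.724%), 5 within each tissue (0.485%) and 17 with a floor of 200 (1.67%). Without the dimmest 25% of genes, 79 of the 150 were tested and 5 were called (0.797% of all genes tested). The leaf count was 15 with a replicate block (1.29%) and 0 with only the 10 leaf arrays (0.0326%). In root (12) it was 7 with quantile normalization, 20 with the floor, 3 without the dimmest genes, 34 with the replicate block, 1 without both raised arrays, and 1 to 69 with single arrays left out. The 56 calls of root against leaf at 0.5 h became 34 without the dimmest genes, 62 with the replicate block and 41 to 54 with single arrays left out, and the 28 at 0 h became 34 with the block and 17 to 22. The interaction had 0 calls throughout. Replicate numbers were not stated to pair arrays. Deviations from the group means of same-numbered arrays correlated at -0.16 to 0.72 over 45 pairs of groups, 38 of them above 0.1. For root against leaf at 0.5 h r was -0.16, and crossed pairing, chosen after seeing the data, gave 61 calls (18.8% of all genes).

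The 314 genes meeting the thresholds became 73 at -1.5, all among the 150, which the order of the choice made certain. They became 275 to 361 with single arrays left out, when 113 to 149 of the 150 were chosen again. Read on the other replicate, 58 and 72 became 65 and 78 with a floor of 100 and 48 and 66 with 400. The leaf 0.5 h change of AK068538 turned to 0.05 with either quantile normalization (0.0492 over all arrays and 0.0501 within tissues), and 0.21 with median centring, and ran from -0.47 to 0.39 with single arrays left out. That of AK072761 ran from -2.67 to 0.40, above 0 when leaf 0 h replicate 2 was left out, and that of AK063627 from -0.30 to 0.59, below 0 without the replicate 2 array of either group (-0.02 for 0 h). The causes were not tested. Among the other results for single genes, 51 lost and 23 gained a call, and 296 did neither. Signal over background limits the depth of the falls: at 12 h, 28 genes in root and 15 in leaf lay below the random-sequence feature on both arrays, so their falls are lower bounds.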
